A study of Mus musculus with 34 samples.

Results

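The genes described are 40 regulators of pre-mRNA splicing in mouse splenic T cells, chosen by name from 48526 genes in the table: 17 hnRNP genes, 9 SR genes, the 2 TRA2 genes, 4 genes of the MBNL and CELF families, 4 genes of KH-domain proteins (Khdrbs1, Qk, Pcbp1 and Pcbp2) and 4 genes grouped as RBM and DBHS proteins (Rbm39, Rbm25, Sfpq and Nono). The known regulators of Pkm splicing (Ptbp1, Hnrnpa1, Hnrnpa2b1, Srsf3 and Rbm4) were left out of the 40. T cells were taken from C57BL/6 mice aged 6-12 weeks by negative selection and were stimulated in culture with antibodies to CD3 and CD28 and with IL-2 for 24 h (day 1) or 72 h (day 3). At each of these days there were 3 libraries of Ars2 KO, 2 labelled CD28 KO, 3 of DKI, 3 of CD28 AYAA, 3 of CD28 Y170F and 2 of WT cells, and 2 WT libraries were unstimulated (day 0), which makes 34 libraries in 13 groups. CD28 is the costimulatory receptor of T cells; the AYAA allele changes the proline motif of its tail, and Y170F changes a tyrosine motif. ARS2 (gene Srrt) is a partner of the nuclear cap-binding complex. The labels give neither the changes that DKI carries nor the promoter behind the Ars2 deletion, and the design text calls the libraries biological replicates.

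SR proteins carry RNA recognition motifs and a domain rich in serine and arginine. They bind exonic enhancers and recruit the spliceosome, and the kinases of the SRPK and CLK families phosphorylate that domain. hnRNP proteins coat nascent RNA, and many of them oppose SR proteins at silencer elements. MBNL and CELF proteins act on the same exons in opposite directions in heart muscle. In T cells, Hnrnpll is known for promoting the exon skipping in Ptprc (CD45) that follows activation.

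Libraries held 8.3 to 47.8 M expected counts each, and the smallest count of any of the 40 genes in any library was 277, so all 40 passed the filter on low counts. A total of 8 libraries held under 12 M: all 6 DKI libraries and WT number 4 at days 1 and 3. The other mutant libraries shared their depth class with WT number 1, so a comparison is also given within a depth class where that changes it. Srrt measured 33.8, 64.8 and 33.5 CPM (counts scaled to the library's total as adjusted by TMM normalization) in Ars2 KO cells at day 1, against 244 and 131 CPM in WT cells. Cd28 measured 482 and 476 CPM in the libraries labelled CD28 KO at day 1, against 387 and 411 CPM in WT cells. The gene's total count was thus not lower in them at day 1. At day 3 it was 212 and 214 CPM in the libraries labelled CD28 KO, against 474 and 587 CPM in WT cells. Counts are per gene and do not show which exons were present, so they do not decide whether the label holds. Below, CD28 KO always means the libraries labelled so. The unstimulated libraries stood apart from all others: mitochondrial ribosomal RNA took at most 0.18% of the counts in stimulated libraries, against 17.2 and 17.5% in unstimulated ones. The summed level of 10 B cell markers was 8.21 to 124 CPM in stimulated libraries, against 911 and 825 CPM at day 0, and that of T cell markers was 2586 to 3811 CPM, against 2117 to 2312 CPM. Myeloid markers summed to 5.41 to 36.2 CPM in stimulated libraries, against 262 and 263 CPM at day 0, NK cell markers to 2.73 to 38.9 CPM, against 66.6 and 78.0 CPM, and erythroid and platelet markers to 0.715 to 47.3 CPM, against 94.5 and 319.9 CPM. Ddx3y was high in all WT libraries of days 1 and 3 and Xist in both of day 0, so the sex of the mice differed too. At days 1 and 3 Ddx3y was also high in all 3 DKI libraries. On each of these days Xist was high in 1 CD28 KO, 2 Ars2 KO, 1 CD28 AYAA and 1 CD28 Y170F library. Sex therefore differed between these last genotypes and WT as well, and its part in those comparisons was not tested. Of the 40 genes, Nono and Hnrnph2 lie on chromosome X.

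The 4 genes with the largest rise on stimulation at day 1 were Pcbp1, Hnrnpa3, Pcbp2 and Hnrnpd. Their promoter windows from RefSeq (GRCm38.p6) are shown for that reason alone. They run from 250 bases before to 50 after the gene's start, in the direction of transcription. The 4 genes did not move together in every comparison. In DKI over WT at day 3, Pcbp1 was higher (log2 fold change 0.62) and Pcbp2 lower (-0.33). Capitals mark CACGTG, the letters bound by factors of the MYC and USF kind, and CCGGAAG, a core bound by ETS factors, searched on both strands (so also CTTCCGG); the 2 motifs did not overlap. The windows are chr2:75659009-75659308 (plus strand), chr6:86526140-86526439 (minus strand), chr5:99978889-99979188 (minus strand) and chr15:102470289-102470588 (plus strand) for Hnrnpa3, Pcbp1, Hnrnpd and Pcbp2.
Hnrnpa3: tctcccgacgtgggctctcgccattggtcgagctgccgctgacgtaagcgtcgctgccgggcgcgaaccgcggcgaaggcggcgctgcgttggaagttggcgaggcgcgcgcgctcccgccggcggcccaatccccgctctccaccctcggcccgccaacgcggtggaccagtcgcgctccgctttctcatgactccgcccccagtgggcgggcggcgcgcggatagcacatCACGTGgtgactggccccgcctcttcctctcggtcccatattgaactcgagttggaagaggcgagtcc
Pcbp1: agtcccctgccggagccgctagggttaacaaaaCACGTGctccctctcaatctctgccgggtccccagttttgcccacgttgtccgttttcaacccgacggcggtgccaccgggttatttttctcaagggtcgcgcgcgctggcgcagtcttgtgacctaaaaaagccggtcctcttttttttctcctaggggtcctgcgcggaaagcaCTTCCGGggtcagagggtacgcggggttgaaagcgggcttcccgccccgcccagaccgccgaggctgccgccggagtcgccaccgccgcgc
Hnrnpd: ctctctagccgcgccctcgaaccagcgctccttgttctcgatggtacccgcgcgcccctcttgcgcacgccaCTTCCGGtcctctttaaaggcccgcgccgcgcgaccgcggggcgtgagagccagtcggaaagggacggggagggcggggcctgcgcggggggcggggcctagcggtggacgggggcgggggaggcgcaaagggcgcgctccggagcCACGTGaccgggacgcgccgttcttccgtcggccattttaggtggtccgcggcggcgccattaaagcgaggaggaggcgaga
Pcbp2: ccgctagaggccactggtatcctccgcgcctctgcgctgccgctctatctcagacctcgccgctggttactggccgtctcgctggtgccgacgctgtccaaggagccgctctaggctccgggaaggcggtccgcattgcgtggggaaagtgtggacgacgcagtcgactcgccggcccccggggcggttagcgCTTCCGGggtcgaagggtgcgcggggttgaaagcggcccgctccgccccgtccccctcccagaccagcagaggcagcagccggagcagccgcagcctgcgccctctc
CACGTG stood in 6 of the 37 members with a window (16.2%), against 9.8% of 11269 tested genes with a window and 7.2% of all 27025 windows. CCGGAAG stood in 8 of the 37 (21.6%), against 17.5% of the tested genes and 9.1% of all windows. GGGCGG, the GC box, stood in 27 of the 37 (73.0%), against 60.6% and 35.9%. These are matches of letters and say nothing of binding.

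Levels differed widely among the 40 genes. Per kilobase of annotated exons in WT cells at day 1, Hnrnpf had the highest mean level with 289 CPM per kb, followed by Hnrnpab with 213, Hnrnpa3 with 197, Pcbp1 with 154 and Srsf2 with 136 CPM per kb. The lowest levels were those of Mbnl2 with 5.15, Qk with 5.69 and Hnrnpll with 7.86 CPM per kb. In unstimulated WT cells the order was another one: Hnrnpf again led with 208 CPM per kb, Srsf5 was next with 155, and Pcbp1, Hnrnpa3 and Pcbp2 stood at 14.2, 18.8 and 11.1 CPM per kb. These levels divide by all annotated exons of a gene, used or not. A gene on the opposite strand overlaps 16 of the 40, Hnrnpab, Hnrnpd, Hnrnpll, Srsf2, Celf2, Pcbp1 and Pcbp2 among them; the libraries were stranded, but the strand setting of the counting is not given in the sources used here, so their counts carry that uncertainty.

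**Figure D1:**
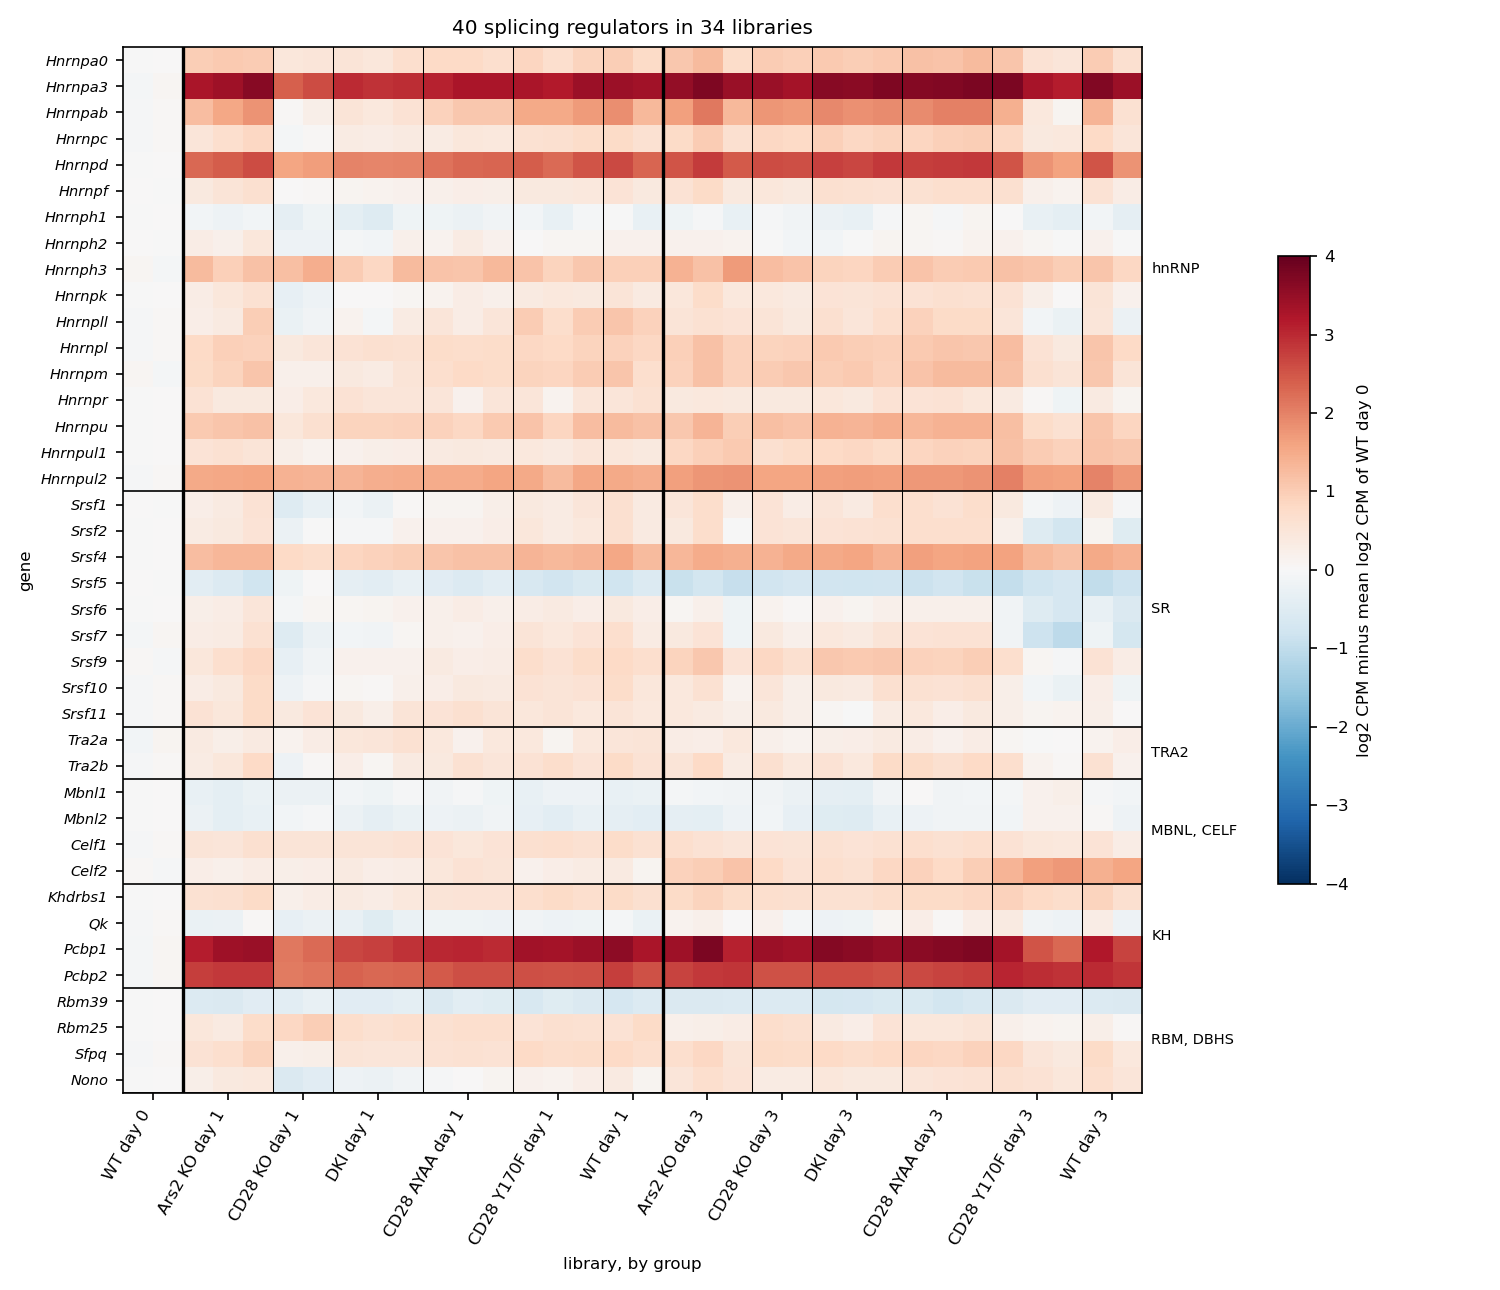
Heat map of log2 CPM of the 40 genes (rows, by family) in 34 libraries (columns, by group), each minus the gene's mean log2 CPM in unstimulated WT cells; red is higher and blue lower, on a scale of -4 to 4. Hnrnpa3, Pcbp1, Pcbp2 and Hnrnpd are red in every stimulated group, and the libraries labelled CD28 KO at day 1 are paler than WT at day 1 in most hnRNP and SR rows.

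Most of the genes were higher in WT cells after 24 h of stimulation than in unstimulated cells. The day 0 libraries also differed in cell markers, mitochondrial ribosomal RNA and sex, as given above. At day 1, 32 of the 40 were higher and 4 lower than in unstimulated cells, at a Benjamini-Hochberg adjusted p under 0.05 in edgeR's quasi-likelihood test over all genes; the same test called 51.3% of all 18292 genes (24.2% higher and 27.2% lower). The median log2 fold change of the 40 was 0.64, against -0.02 over all genes tested. By family, 15 of 17 hnRNP genes rose and none fell, 8 of 9 SR genes rose and Srsf5 fell, both TRA2 genes rose, and 3 of the 4 KH genes rose, the exception being Qk. Among the MBNL and CELF genes Celf1 rose, Mbnl1 and Mbnl2 fell, and Celf2 did not pass the test. The SR count depended on single libraries: without WT number 1 at day 1, 23 of the 40 genes and 3 SR genes (Srsf4, Srsf9 and Srsf11) were higher, without either day 0 library 4 SR genes were, and RLE scaling and DESeq2 gave 5.

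Pcbp1 and Pcbp2 encode poly(C)-binding proteins that act in splicing, mRNA stability and translation. Pcbp1 measured 24.8 and 27.4 CPM at day 0, 312 and 251 CPM at day 1 and 240.2 and 168 CPM at day 3. Pcbp2 measured 54.9 and 60.2 CPM at day 0, 392 and 338 CPM at day 1 and 454 and 416 CPM at day 3. The stimulated and unstimulated libraries of both genes lay far apart, and the log2 fold changes were 3.43 ± 0.24 (SE) and 2.67 ± 0.09 at day 1 over day 0, with adjusted p of 2.5e-11 and 1.6e-17.

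Hnrnpa3, a relative of Hnrnpa2b1, measured 96.9 and 106 CPM at day 0, 1088 and 1039 CPM at day 1 and 1326 and 1081 CPM at day 3. The day 1 over day 0 log2 fold change was 3.39 ± 0.16 (adjusted p = 1.3e-14). Hnrnpd, also known as AUF1 and as a binder of AU-rich elements in unstable mRNAs, had a mean of 286 ± 43.0 CPM at day 1, against 50.8 ± 0.56 CPM at day 0 (SD, n = 2 each), a log2 fold change of 2.50 ± 0.21 (adjusted p = 5.4e-10). Hnrnpul2, a relative of the scaffold attachment factor Hnrnpu, measured 89.4 and 94.8 CPM at day 0, 265 and 254 CPM at day 1 and 366 and 308 CPM at day 3. None of the stimulated WT values of these genes overlapped those at day 0. At day 3, 22 of the 40 genes were higher and 3 lower than at day 0, where 50.5% of all genes were called.

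The 4 genes that fell at day 1 were Rbm39, Srsf5, Mbnl2 and Mbnl1. Srsf5, an SR protein, measured 621 and 614 CPM at day 0, 354 and 418 CPM at day 1 and 313 and 352 CPM at day 3, and its log2 fold change at day 1 over day 0 was -0.68 ± 0.11 (adjusted p = 1.8e-05). Rbm39, a relative of the splicing factor U2AF2, measured 571 and 582 CPM at day 0, 361 and 391 CPM at day 1 and 393 and 383 CPM at day 3. Its log2 fold change at day 1 was -0.62 ± 0.07 (adjusted p = 2e-07). Both genes stayed below their day 0 values in every stimulated WT library.

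The muscleblind genes fell by less. Mbnl2 measured 80.2 and 82.5 CPM at day 0, 62.9 and 60.6 CPM at day 1 and 84.0 and 70.0 CPM at day 3, a log2 fold change of -0.40 ± 0.10 at day 1 over day 0 (adjusted p = 0.002). Mbnl1 measured 1411 and 1448 CPM at day 0, 1167 and 1181 CPM at day 1 and 1380 and 1330 CPM at day 3, and its day 1 value was lower by a log2 fold change of -0.28 ± 0.09 (adjusted p = 0.011). At day 3 the Mbnl2 libraries overlapped those of day 0.

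In bulk RNA, fewer cells of a type and less RNA per cell cannot be told apart. The part that B cell, myeloid, NK cell, erythroid and platelet markers, mitochondrial ribosomal RNA and sex had in the differences from day 0 was not tested.

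Between day 1 and day 3 of WT cells Celf2 rose and some SR genes fell. At day 3, 6 genes were higher and 9 lower than at day 1, where 29.5% of all genes were called (15.5% higher and 14.0% lower), and the median over the 40 was -0.09. Of the 9 SR genes, 5 fell (Srsf6, Srsf7, Srsf10, Srsf2 and Srsf11) and none rose. Without WT number 1 at day 1, 6 genes were higher and 2 lower, and without WT number 4 at day 3, 6 were higher and 3 lower; 1 SR gene was lower in each of these, and also in a fit to the 2 groups alone.

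Celf2, a CUG-binding regulator that in the human Jurkat T cell line rises on signalling, had the largest rise. It measured 225 and 214 CPM at day 0, 280.1 and 238 CPM at day 1 and 584 and 652 CPM at day 3, a log2 fold change of 1.25 ± 0.11 at day 3 over day 1 (adjusted p = 9.6e-09). Its rise at day 1 over day 0 did not pass the test (log2 fold change 0.24 ± 0.11, adjusted p = 0.071). Hnrnpul1, another relative of Hnrnpu, also rose, and measured 238 and 245 CPM at day 0, 329.7 and 313 CPM at day 1 and 529.8 and 507 CPM at day 3 (day 3 over day 1, 0.69 ± 0.08, adjusted p = 4.3e-07).

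Nono, a paraspeckle protein of the DBHS family, measured 278 and 280.5 CPM at day 0, 357 and 300.5 CPM at day 1 and 441 and 392 CPM at day 3. Its log2 fold change at day 3 over day 1 was 0.34 ± 0.09 (adjusted p = 0.005), and that of Hnrnpul2 was 0.38 ± 0.10 (adjusted p = 0.0071). Neither gene's day 1 and day 3 libraries overlapped.

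Among the genes that fell, Srsf6, an SR protein, measured 301 and 309 CPM at day 0, 397 and 370.0 CPM at day 1 and 251 and 202 CPM at day 3. Srsf7, an SR protein with a zinc knuckle, measured 112 and 123 CPM at day 0, 188 and 148 CPM at day 1 and 105 and 71.8 CPM at day 3. Hnrnpll measured 43.9 and 47.2 CPM at day 0, 97.1 and 86.4 CPM at day 1 and 63.9 and 38.6 CPM at day 3. Each of the 3 genes peaked at day 1, with day 3 over day 1 log2 fold changes of -0.76 ± 0.13 for Srsf6 (adjusted p = 5.4e-05), -0.92 ± 0.22 for Srsf7 (adjusted p = 0.0021) and -0.83 ± 0.22 for Hnrnpll (adjusted p = 0.0047). Rbm25, a protein that binds with the U1 snRNP, measured 284 and 286 CPM at day 0, 422 and 489 CPM at day 1 and 338 and 293 CPM at day 3 (day 3 over day 1, -0.53 ± 0.10, adjusted p = 0.00023).

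The mutant cells were also set against the same unstimulated WT libraries. At day 1, 32 genes were higher and 4 lower in Ars2 KO cells (53.6% of all genes called), 15 and 4 in the libraries labelled CD28 KO (52.2%), 21 and 5 in DKI cells (49.1%), 23 and 2 in CD28 AYAA cells (50.0%) and 32 and 4 in CD28 Y170F cells (54.7%). At day 3 the counts were 30 higher and 3 lower in Ars2 KO cells (56.8%), 30 and 4 in DKI (58.1%), 28 and 2 in CD28 KO (52.1%), 32 and 2 in CD28 AYAA (60.2%) and 21 and 4 in CD28 Y170F cells (53.8%). In every one of these groups Hnrnpa3, Pcbp1, Pcbp2 and Hnrnpd rose and Rbm39 fell. Srsf5 fell in 9 of these 10 groups and did not pass the test in the libraries labelled CD28 KO at day 1, where it measured 543 and 625 CPM. All these comparisons share the 2 day 0 libraries.

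At day 1 the libraries labelled CD28 KO had less of most of these RNAs than WT cells. Of the 40 genes, 27 were lower and 4 higher, where 43.3% of all genes were called (24.7% lower and 18.6% higher), and the median log2 fold change was -0.44, against 0.02 over all genes. By family, 13 of 17 hnRNP genes fell and Hnrnph3 rose, 7 of 9 SR genes fell and Srsf5 rose, both TRA2 genes fell, and 3 of 4 KH genes fell. The 9 genes that did not pass the test were Rbm25, Celf1, Hnrnpr, Hnrnpul2, Hnrnph1, Qk, Mbnl1, Srsf11 and Celf2. The largest decreases were those of Hnrnpab at -1.47 ± 0.29, Pcbp1 at -1.25 ± 0.23 and Hnrnpll at -1.21 ± 0.22.

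Nono measured 189 and 204 CPM in CD28 KO, against 357 and 300.5 CPM in WT cells, a log2 fold change of -0.74 ± 0.09 (adjusted p = 5.3e-07). Pcbp2 measured 240.5 and 252 CPM in CD28 KO, against 392 and 338 CPM in WT cells (-0.57 ± 0.08, adjusted p = 5.1e-06). The groups did not overlap for these genes, nor for Rbm25 and Celf1, which did not pass the test.

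Srsf4, an SR protein, measured 65.2 and 60.2 CPM in CD28 KO, against 108 and 88.9 CPM in WT cells (-0.65 ± 0.11, adjusted p = 2.4e-05). Hnrnpa3 measured 536 and 612 CPM in CD28 KO, against 1088 and 1039 CPM in WT cells (-0.89 ± 0.15, adjusted p = 3e-05). The CD28 KO values of Hnrnpa3 lay far above those of unstimulated WT cells, 96.9 and 106 CPM, and those of Hnrnpab, 200.1 and 227 CPM, lay just above the unstimulated 189.8 and 199.8 CPM.

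Of the 4 genes that were higher in CD28 KO, Srsf5, Rbm39 and Mbnl2 had fallen on stimulation in WT cells. Both comparisons use the same WT libraries of day 1, so these directions are not independent. Srsf5 measured 543 and 625 CPM in CD28 KO, against 354 and 418 CPM in WT cells (0.60 ± 0.11, adjusted p = 0.00011). Rbm39 measured 434 and 473 CPM in CD28 KO, against 361 and 391 CPM in WT cells (0.27 ± 0.07, adjusted p = 0.0044). The groups overlapped for neither gene.

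Mbnl2 measured 74.8 and 78.2 CPM in CD28 KO, against 62.9 and 60.6 CPM in WT cells (0.31 ± 0.10, adjusted p = 0.016). Hnrnph3, a small relative of the G-tract binders Hnrnph1 and Hnrnpf, measured 39.9 and 47.7 CPM in CD28 KO, against 33.6 and 33.8 CPM in WT cells (0.38 ± 0.15, adjusted p = 0.04). These 2 differences were small, though their groups did not overlap either.

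Against WT number 1 alone, of the same depth class, 3 genes were higher and 25 lower in CD28 KO, and against WT number 4 alone 3 and 16, with 7 of 17 hnRNP and 3 of 9 SR genes lower. B cell markers moved with this comparison: 7 of 10 were higher in CD28 KO, and their summed level was 124 and 89.5 CPM there, against 26.8 and 12.6 CPM in WT cells, while summed T cell markers measured 2761 and 2726 CPM, against 2764 and 2696 CPM. Over the CD28 Y170F libraries at day 1 the B cell markers summed to between 12.4 and 118 CPM. Sex differed as well: at day 1 Xist was high in 1 CD28 KO library and in neither WT library. The part of B cells and of sex in the result was not tested.

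**Figure D2:**
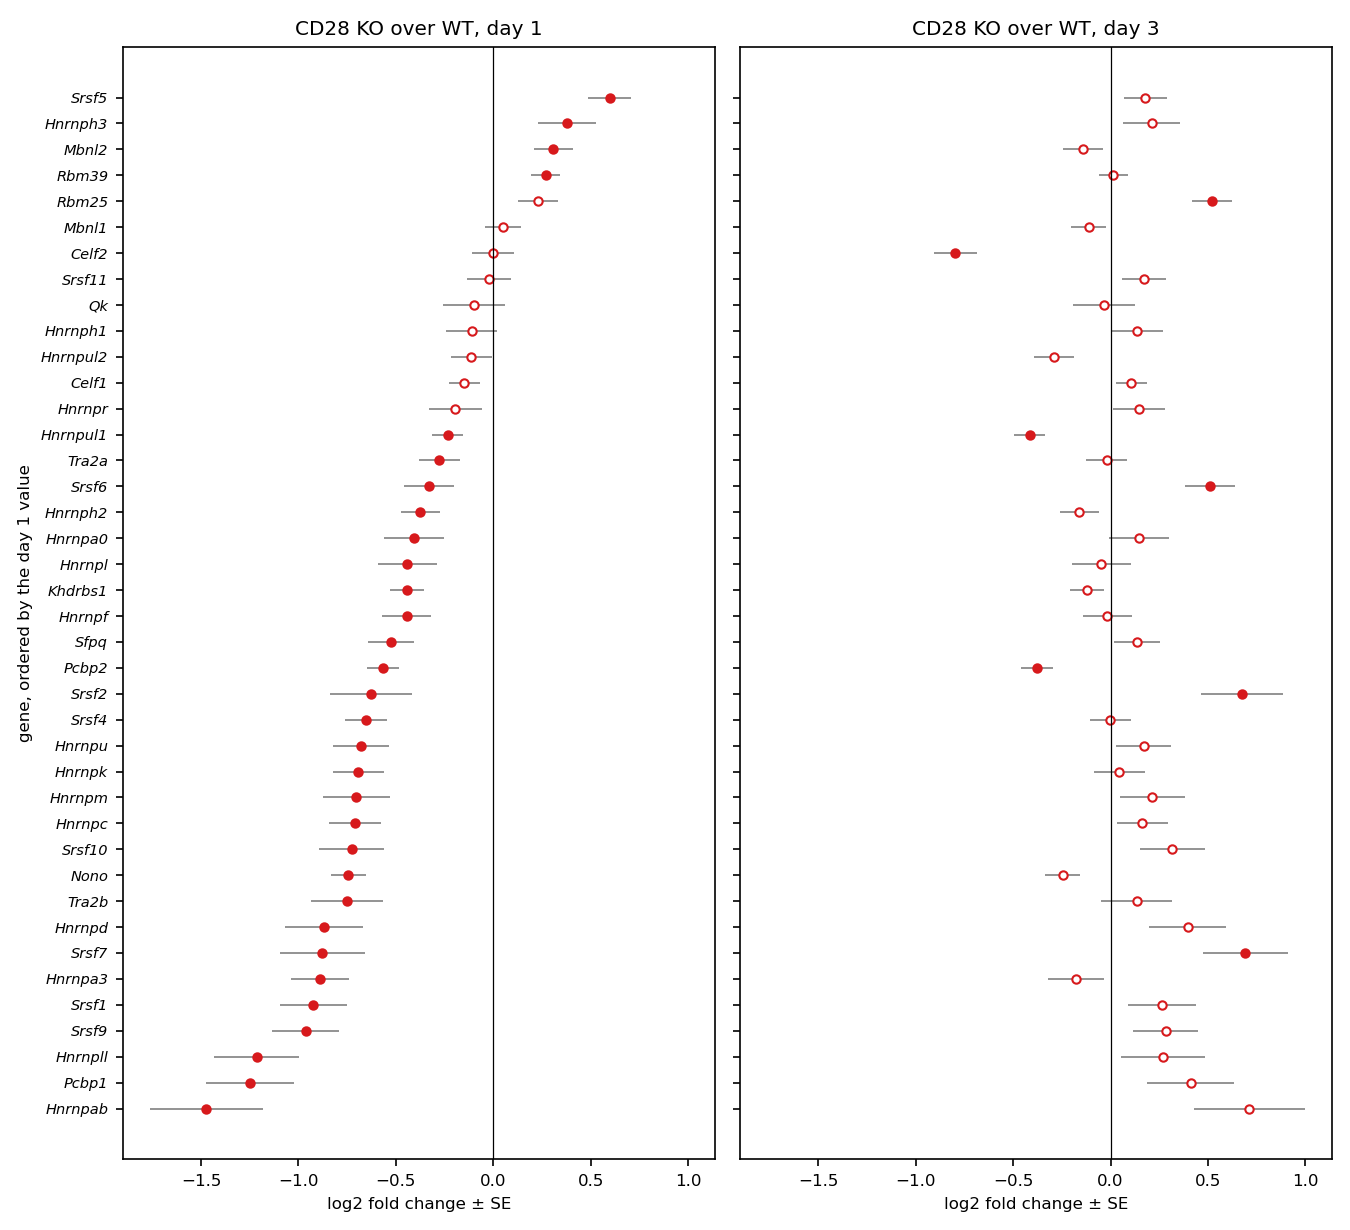
Log2 fold change ± SE of each of the 40 genes in the libraries labelled CD28 KO over WT at day 1 (left) and day 3 (right), with genes in the order of the day 1 value; filled points passed an adjusted p of 0.05. At day 1 the points run from -1.47 to 0.60 with 27 filled below 0, and at day 3 from -0.80 to 0.71 with 3 filled below 0 and 4 above.

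DKI cells at day 1 also had lower levels of several of these RNAs than WT cells. Of the 40 genes, 17 were lower and 2 higher, where 26.0% of all genes were called (15.8% lower and 10.3% higher), and the median was -0.33. Nono measured 240.3, 236 and 256 CPM in DKI, against 357 and 300.5 CPM in WT cells (-0.43 ± 0.08, adjusted p = 0.00049). Srsf4 measured 67.5, 70.1 and 73.2 CPM in DKI, against 108 and 88.9 CPM in WT cells (-0.49 ± 0.10, adjusted p = 0.00073). DKI and WT libraries overlapped for neither.

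Pcbp2 measured 292, 281 and 288 CPM in DKI, against 392 and 338 CPM in WT cells (-0.35 ± 0.07, adjusted p = 0.0015). Hnrnpll measured 50.0, 43.5 and 56.8 CPM in DKI, against 97.1 and 86.4 CPM in WT cells (-0.87 ± 0.20, adjusted p = 0.0024). The 2 genes that were higher in DKI were Srsf5, at 482, 464 and 508 CPM against 354 and 418 CPM in WT cells (0.33 ± 0.10, adjusted p = 0.02), and Rbm39, at 421, 424 and 440.5 CPM against 361 and 391 CPM (0.19 ± 0.07, adjusted p = 0.043). For each of these 4 genes every DKI library lay on the same side of both WT libraries. The genes were named by adjusted p, so this adds no separate evidence. DKI and WT libraries also did not overlap for Tra2b and Srsf2, which did not pass the test.

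Depth class moved with this comparison. The share of all genes called is not given for the settings that follow, so their counts cannot be read as particular to the 40 genes. Against WT number 4 alone, the WT library of the same depth class, none of the 40 genes was called in DKI at day 1, where the lone library is assumed to vary like the other groups. With depth class as a term in the model 4 were lower and none higher. Against WT number 1 alone 17 were lower and 1 higher. Leaving out DKI number 1 gave 11 lower and 1 higher, and leaving out DKI number 2 gave 10 lower and 1 higher.

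DKI and CD28 KO differed from each other at day 1 in Nono and Hnrnpa3 alone among the 40, where 9.06% of all genes were called (6.30% higher and 2.76% lower). The 40 genes were thus called less often than all genes tested. Nono was higher in DKI, with the values above against 189 and 204 CPM in CD28 KO (0.31 ± 0.08, adjusted p = 0.018). Hnrnpa3 measured 795, 748 and 787 CPM in DKI, against 536 and 612 CPM in CD28 KO (0.44 ± 0.13, adjusted p = 0.042). Neither group pair overlapped, but the groups lay in different depth classes, and the count moved with nearly every setting: without either CD28 KO library or without DKI number 3 it was 0, without DKI number 1 or number 2 it was 1, and with depth class as a term 9 were higher and 1 lower.

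In CD28 AYAA, CD28 Y170F and Ars2 KO cells none of the 40 genes was called against WT at day 1. For CD28 AYAA 3.61% of all genes were called (1.61% higher and 2.00% lower). The log2 fold changes of the 40 ran from -0.58 to 0.27 with a median of -0.16 and a median SE of 0.12, and 14 of the 40 had an unadjusted p under 0.05. Nearest to the threshold was Hnrnpll, at 64.3, 55.6 and 64.2 CPM in CD28 AYAA against 97.1 and 86.4 CPM in WT cells (-0.58 ± 0.19, adjusted p = 0.086). Its groups did not overlap, and DESeq2 called 2 of the 40 lower, the depth class term 9 lower, and WT number 1 alone as the comparison 2 lower.

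For CD28 Y170F 0.0547% of all genes were called at day 1, the log2 fold changes of the 40 ran from -0.17 to 0.09, and none had an unadjusted p under 0.05; DESeq2 also called none. For Ars2 KO 0.399% of all genes were called, the range was -0.44 to 0.18, and 1 of the 40, Hnrnpll, had an unadjusted p under 0.05, at 55.0, 58.8 and 89.3 CPM in Ars2 KO against 97.1 and 86.4 CPM in WT cells (-0.44 ± 0.19, adjusted p = 0.41). The Ars2 KO and WT libraries overlapped for Hnrnpll. DESeq2 called none of the 40 in Ars2 KO either.

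The day 1 means of 25 of the 40 genes (62.5%) stood in the order CD28 KO, DKI, CD28 AYAA, WT from low to high, which 22.3% of all genes tested also did. Pcbp1 gives the pattern: it measured 111 and 126 CPM in CD28 KO, 168, 173 and 195 CPM in DKI, 210.0, 213 and 206 CPM in CD28 AYAA and 312 and 251 CPM in WT cells. Its 4 groups did not overlap one another. Srsf5 and Rbm39 alone among the 40 had the reverse order, which 18.4% of all genes tested had. The order of means is a description, and it is also the order of the median differences from WT given above from the same data. It leaves out Ars2 KO and CD28 Y170F. The DKI libraries lie in another depth class than those of CD28 KO and CD28 AYAA. Among neighbours in it, 2 of the 40 genes were called between DKI and CD28 KO (9.06% of all genes). None was called between CD28 AYAA and WT (3.61%). DKI and CD28 AYAA were not compared with each other.

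**Figure D3:**
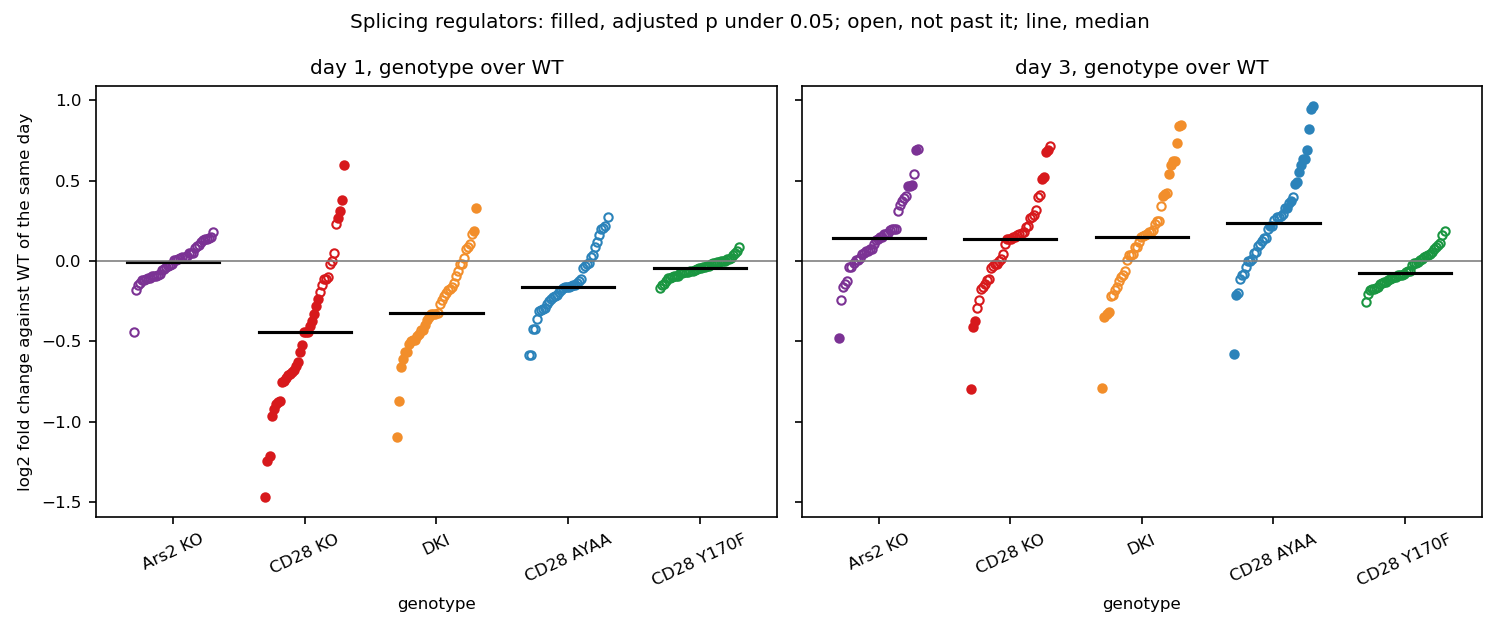
Log2 fold change of each of the 40 genes in each genotype over WT of the same day, at day 1 (left) and day 3 (right); filled points passed an adjusted p of 0.05, open points did not, and lines are medians. At day 1 the medians are -0.44 in CD28 KO and -0.33 in DKI, and at day 3 they are 0.14 in CD28 KO, 0.15 in DKI and 0.24 in CD28 AYAA.

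At day 3 Celf2 was lower and Srsf6 and Srsf7 were higher than in WT cells in 4 of the 5 genotypes. In Ars2 KO 3 genes were higher and 1 lower than in WT cells, where 12.9% of all genes were called (6.60% higher and 6.27% lower). The libraries labelled CD28 KO had 4 higher and 3 lower (20% of all genes called, 8.57% higher and 11.5% lower), DKI had 9 and 4 (23.4%, 10.3% and 13.1%), and CD28 AYAA had 13 and 2 (21.7%, 10.4% and 11.3%). In Ars2 KO and CD28 KO the 40 genes were thus called less often than all genes tested, and in DKI and CD28 AYAA more often. In CD28 Y170F none was called (0.0273%; 1 of the 40 at an unadjusted p under 0.05, and none in DESeq2). These counts share the 2 WT libraries, which differed between themselves. WT number 4 shares the depth class of DKI, and WT number 1 that of the other genotypes. Where DKI is set against WT number 1 alone here and below, the libraries compared also differ in depth class. Against WT number 1 alone, 1 gene was higher and 5 lower in CD28 KO, 1 and 4 in DKI, 1 and 1 in CD28 AYAA and 0 and 0 in Ars2 KO, so most of the higher calls rested on WT number 4. Against WT number 4 alone, 7 genes were higher and 1 lower in Ars2 KO, 12 and 3 in DKI, 6 and 3 in CD28 KO and 19 and 1 in CD28 AYAA. Depth class as a term gave 2 higher and 5 lower in CD28 KO, 13 and 3 in DKI, 4 and 2 in CD28 AYAA and 0 and 2 in Ars2 KO. Without Ars2 KO number 3, 7 were higher and 2 lower there, and without CD28 Y170F number 1, 1 was higher and 3 lower in CD28 Y170F. T cell markers moved with these comparisons: of 11, 5 were lower in Ars2 KO, 8 in DKI, 8 in CD28 KO, 5 in CD28 AYAA and none in CD28 Y170F, and 1 was higher in DKI and in CD28 AYAA. NK cell markers summed to 29.7 and 38.9 CPM in CD28 KO, against 13.2 and 12.9 CPM in WT cells, with 2 of 4 higher, and myeloid markers to 29.6, 14.6 and 19.6 CPM in Ars2 KO, against 8.90 and 10.3 CPM in WT cells, with 3 of 11 higher. The part of these markers in the day 3 results was not tested.

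Celf2 was the gene lower in 4 of the 5 genotypes at day 3. It measured 418, 430.0 and 481 CPM in Ars2 KO, 349, 332 and 388 CPM in DKI, 383 and 328 CPM in CD28 KO, 420.1, 385 and 435 CPM in CD28 AYAA and 562, 683 and 738 CPM in CD28 Y170F cells, against 584 and 652 CPM in WT cells. Every library of the first 4 genotypes lay below both WT libraries, and the CD28 Y170F libraries overlapped WT. The log2 fold changes against WT were -0.48 ± 0.10 in Ars2 KO (adjusted p = 0.0023), -0.79 ± 0.10 in DKI (4.4e-06), -0.80 ± 0.11 in CD28 KO (2.1e-05), -0.58 ± 0.10 in CD28 AYAA (0.00019) and 0.10 ± 0.10 in CD28 Y170F (0.92). Against WT number 1 alone the Ars2 KO call was lost, at -0.40, and the other 3 were kept.

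SR genes were among the higher calls in each of these 4 genotypes: 2 of 9 in Ars2 KO, 5 in DKI, 3 in CD28 KO and 6 in CD28 AYAA. With WT number 1 alone as the comparison, 1 was higher in DKI, 1 in CD28 AYAA and none in Ars2 KO and CD28 KO. Srsf6 measured 323, 350.4 and 269.8 CPM in Ars2 KO, 333 and 313 CPM in CD28 KO, 344, 332 and 350.4 CPM in DKI, 351.4, 354 and 349 CPM in CD28 AYAA and 276, 213 and 193 CPM in CD28 Y170F cells, against 251 and 202 CPM in WT cells. It was higher in the first 4 of these, by 0.47 ± 0.12 (adjusted p = 0.0085), 0.51 ± 0.13 (0.0055), 0.59 ± 0.12 (0.00062) and 0.63 ± 0.12 (0.00042). All libraries of those 4 genotypes lay above both WT libraries, and against WT number 1 alone the calls in DKI and CD28 AYAA were kept.

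Srsf7 measured 153, 172 and 105 CPM in Ars2 KO, 153 and 134 CPM in CD28 KO, 157, 152 and 169.8 CPM in DKI, 171.5, 175 and 175 CPM in CD28 AYAA and 108, 66.8 and 57.3 CPM in CD28 Y170F cells, against 105 and 71.8 CPM in WT cells. The log2 fold changes were 0.69 ± 0.20 in Ars2 KO (adjusted p = 0.025), 0.69 ± 0.22 in CD28 KO (0.026), 0.84 ± 0.20 in DKI (0.0036) and 0.97 ± 0.20 in CD28 AYAA (0.0014). Ars2 KO number 3 fell inside the WT range, and against WT number 1 alone none of the 4 calls was kept.

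Srsf2, also known as SC35, measured 418 and 397 CPM in CD28 KO, 419.9, 424 and 430.5 CPM in DKI and 454, 450.3 and 449.5 CPM in CD28 AYAA cells, against 306 and 204 CPM in WT cells. The groups did not overlap, with log2 fold changes of 0.68 ± 0.21 (adjusted p = 0.025), 0.73 ± 0.20 (0.0075) and 0.82 ± 0.20 (0.0039). Against WT number 1 alone these 3 calls were lost as well, at 0.41, 0.47 and 0.56.

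Srsf9 was higher in DKI, at 58.9, 57.4 and 58.8 CPM against 41.4 and 34.0 CPM in WT cells (0.62 ± 0.16, adjusted p = 0.005), and in CD28 AYAA (0.49 ± 0.16, adjusted p = 0.024). Srsf10, an SR protein that represses splicing when dephosphorylated, was higher in CD28 AYAA, at 259, 249 and 263 CPM against 201 and 148 CPM in WT cells (0.56 ± 0.15, adjusted p = 0.01), and in DKI (0.42 ± 0.15, adjusted p = 0.049). Rbm25 was higher in CD28 KO, at 464 and 442 CPM against 338 and 293 CPM in WT cells (0.52 ± 0.10, adjusted p = 0.00067), and in CD28 AYAA (0.33 ± 0.09, adjusted p = 0.011). Of these 6 calls, that of Rbm25 in CD28 KO alone was kept against WT number 1 alone, at 0.42. Hnrnph3 was higher in Ars2 KO, at 45.8, 39.3 and 56.7 CPM against 37.4 and 30.8 CPM in WT cells (0.47 ± 0.14, adjusted p = 0.024), and without Ars2 KO number 3 that call was lost, at 0.31.

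Hnrnpab, Hnrnpd, Hnrnpu and Pcbp1 were higher in both DKI and CD28 AYAA at day 3. In DKI the log2 fold changes were 0.85 ± 0.27 for Hnrnpab (adjusted p = 0.022), 0.54 ± 0.18 for Hnrnpd (0.034), 0.40 ± 0.13 for Hnrnpu (0.026) and 0.62 ± 0.21 for Pcbp1 (0.029). In CD28 AYAA they were 0.94 ± 0.27 (0.013), 0.59 ± 0.18 (0.022), 0.37 ± 0.13 (0.042) and 0.69 ± 0.21 (0.017) for the same genes. WT number 1 lies in the depth class of CD28 AYAA but not in that of DKI. None of these 8 calls was kept against WT number 1 alone.

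Beside Celf2, Pcbp2 and Hnrnpul1 were lower at day 3. Pcbp2 measured 336 and 335 CPM in CD28 KO, 349, 350.0 and 338 CPM in DKI and 362, 372 and 395 CPM in CD28 AYAA cells, against 454 and 416 CPM in WT cells (-0.38 ± 0.08, adjusted p = 0.0017; -0.33 ± 0.07, 0.0017; -0.21 ± 0.07, 0.04). Hnrnpul1 measured 375 and 403 CPM in CD28 KO and 415, 431 and 403 CPM in DKI cells, against 529.8 and 507 CPM in WT cells (-0.41 ± 0.08, adjusted p = 0.00065; -0.32 ± 0.07, 0.0023). Mbnl2 was lower in DKI, at 58.6, 57.4 and 65.6 CPM against 84.0 and 70.0 CPM in WT cells (-0.35 ± 0.09, adjusted p = 0.007). For these genes every mutant library lay below both WT libraries. The call of Pcbp2 in CD28 AYAA was lost against WT number 1 alone, at -0.27.

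**Figure D4:**
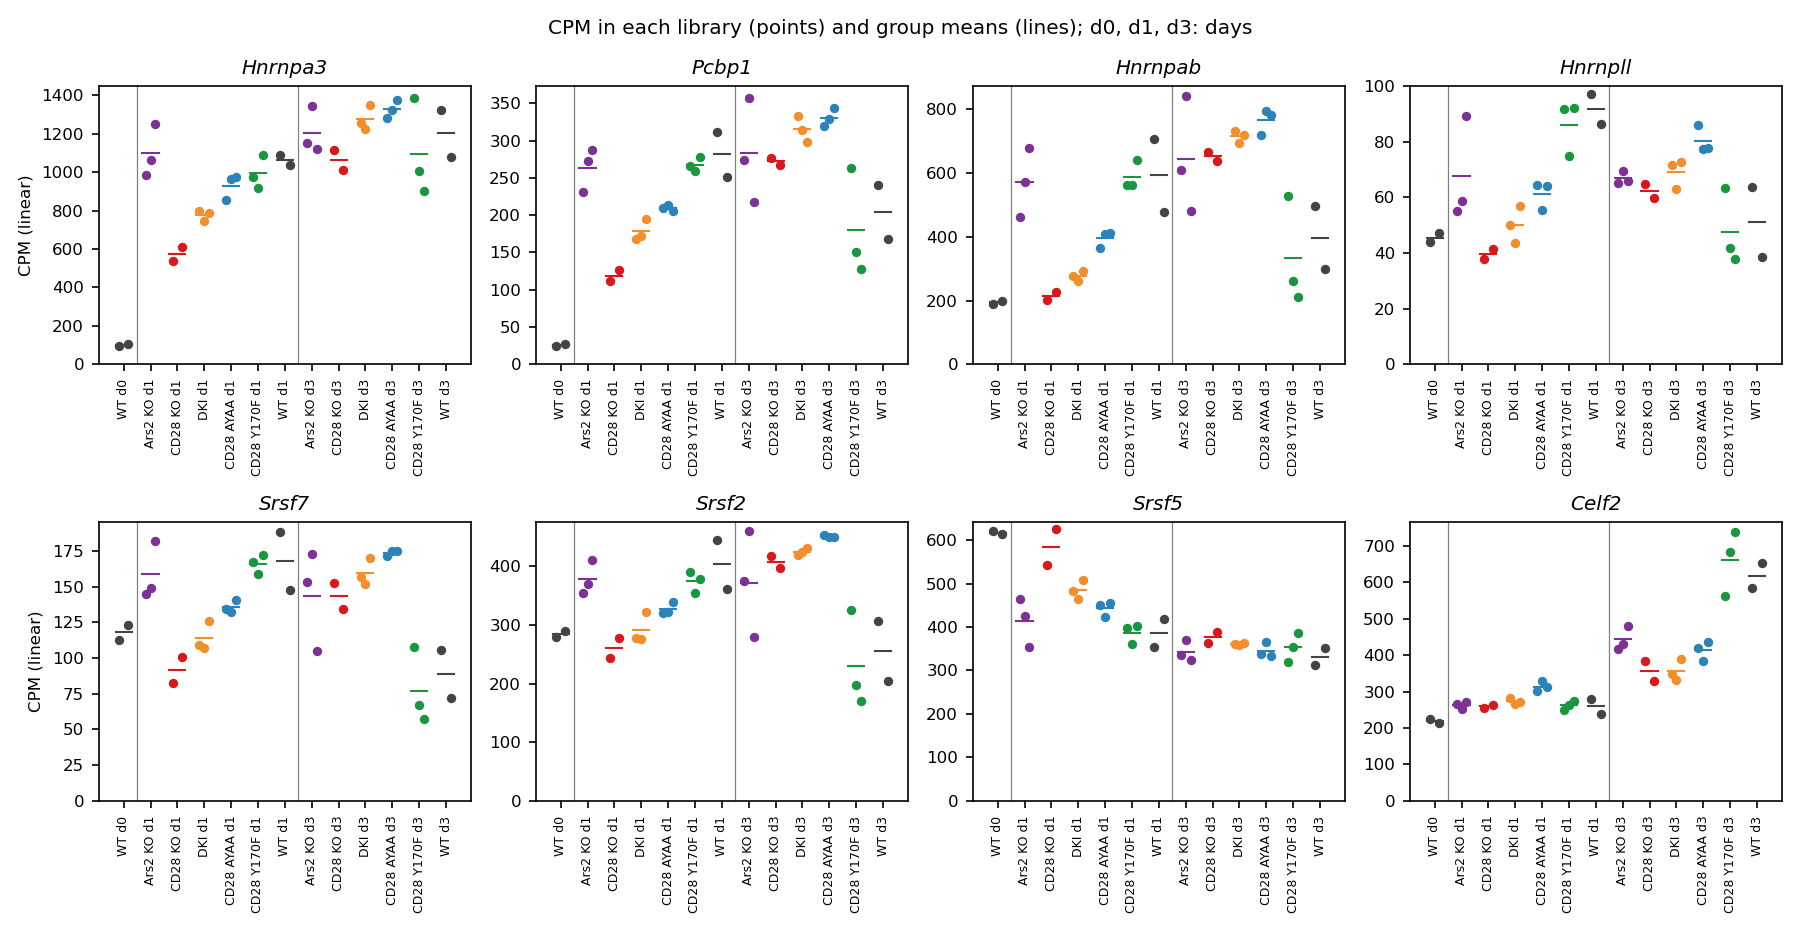
CPM of 8 of the 40 genes in each library (points) with group means (lines), from unstimulated WT at the left through day 1 and day 3; each axis is linear and starts at 0. Celf2 at day 3 is highest in WT and CD28 Y170F cells, Srsf5 is highest in unstimulated WT cells and in the libraries labelled CD28 KO at day 1, and Hnrnpab at day 3 is spread in WT (497 and 298 CPM) and CD28 Y170F cells (527, 262 and 211 CPM).

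The 2 alleles with a changed motif in the CD28 tail parted at day 3, in a comparison that uses no WT library and lies within 1 depth class. In CD28 AYAA 21 genes were higher and 5 lower than in CD28 Y170F cells, where 36.8% of all genes were called (17.6% higher and 19.2% lower), and the median of the 40 was 0.30, against -0.04 over all genes. Of the 17 hnRNP genes 10 were higher, and of the 9 SR genes 7 were higher, with none lower in either family. At day 1 none of the 40 was called between these alleles, where 4.35% of all genes were (2.17% higher and 2.18% lower), although 9 had an unadjusted p under 0.05, and a fit to these 2 groups alone called 1 higher and 12 lower; DESeq2 called none. A test of whether the difference between the alleles changed with the day was not run.

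Srsf7 measured 171.5, 175 and 175 CPM in CD28 AYAA, against 108, 66.8 and 57.3 CPM in CD28 Y170F cells (1.17 ± 0.18, adjusted p = 1.9e-05). Srsf2 measured 454, 450.3 and 449.5 CPM in CD28 AYAA, against 325, 197 and 169.9 CPM in CD28 Y170F cells (0.97 ± 0.17, adjusted p = 0.0001). Srsf6 measured 351.4, 354 and 349 CPM in CD28 AYAA, against 276, 213 and 193 CPM in CD28 Y170F cells (0.63 ± 0.10, adjusted p = 4.2e-05). In all 3 genes the groups did not overlap, and CD28 Y170F number 1 stood nearest to CD28 AYAA.

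Hnrnpab, a relative of Hnrnpd, measured 717, 795 and 782 CPM in CD28 AYAA, against 527, 262 and 211 CPM in CD28 Y170F cells (1.20 ± 0.24, adjusted p = 0.00029). Celf2 went the other way, with the day 3 values given above (-0.68 ± 0.09, adjusted p = 3.7e-06). So did Pcbp2, at 362, 372 and 395 CPM in CD28 AYAA, against 479, 442 and 424 CPM in CD28 Y170F cells (-0.25 ± 0.07, adjusted p = 0.0036). Mbnl2, at 71.4, 73.1 and 74.4 CPM in CD28 AYAA against 75.9, 91.3 and 92.3 CPM (-0.25 ± 0.08, adjusted p = 0.021), and Rbm39, at 376, 348 and 373 CPM against 386, 419.7 and 420.5 CPM (-0.16 ± 0.06, adjusted p = 0.038), were lower by little. No group pair of these 5 genes overlapped. Without CD28 Y170F number 2 the counts were 14 higher and 2 lower, with 6 hnRNP genes higher, and without number 3 they were 13 and 2, with 5 hnRNP genes higher. B cell markers were lower in CD28 AYAA for 3 of 10, with summed levels of 23.7, 8.66 and 8.48 CPM, against 57.8, 36.6 and 15.9 CPM in CD28 Y170F cells; 8 of 11 T cell markers were lower and 1 higher, and 2 of 4 NK cell markers were higher. The part of these markers in the result was not tested.

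Between DKI and CD28 KO at day 3 none of the 40 was called (0.454% of all genes), their log2 fold changes ran from -0.27 to 0.34, and 3 had an unadjusted p under 0.05; DESeq2 called none of them, and a fit to these 2 groups alone called 3 higher and 2 lower.

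Whether a genotype's difference from WT changed between the days was tested as an interaction. The difference was more positive at day 3 than at day 1 for 20 of the 40 genes and more negative for 3 in CD28 KO (35.3% of all genes called), for 20 and 4 in DKI (32.5%), for 18 and 1 in CD28 AYAA (24.4%), for 0 and 1 in Ars2 KO (3.68%) and for none in CD28 Y170F (0.00%; none of the 40 at an unadjusted p under 0.05). Hnrnpab gave the largest value, 2.18 ± 0.41 in CD28 KO (adjusted p = 0.00018). Celf2 was more negative at day 3 in 4 genotypes, by -0.87 ± 0.14 in DKI (adjusted p = 7.1e-05), -0.79 ± 0.16 in CD28 KO (0.00028), -0.85 ± 0.14 in CD28 AYAA (0.00018) and -0.50 ± 0.14 in Ars2 KO (0.048). Without WT number 1 at day 1 the counts were 6 and 1 in CD28 AYAA and 11 and 3 in DKI, and without WT number 4 at day 3 they were 4 and 1 in CD28 AYAA and 12 and 3 in DKI. The Ars2 KO count ran from 0 to 5 as single libraries were left out, and it was 3 and 2 without Ars2 KO number 3 at day 3.

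Ratios between paralogs within a library do not depend on scaling. The log2 ratio of Celf1 to Celf2 CPM was 0.12 and 0.26 in WT cells at day 1 and between -0.38 and 0.20 in every other group at day 1. At day 3 it was -0.90 to -0.52 in Ars2 KO, -0.45 to -0.30 in DKI, -0.49 to -0.32 in CD28 KO, -0.58 to -0.46 in CD28 AYAA and -1.58 to -1.02 in CD28 Y170F cells, against -1.52 to -1.12 in WT cells. CD28 Y170F cells overlapped WT, and the other 4 genotypes did not.

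The ratio of Hnrnpl to Hnrnpll, which encode related proteins, was 2.53 and 2.57 in WT cells at day 0, 2.39 and 2.44 at day 1 and 3.15 and 3.58 at day 3. At day 1 it was 3.16 and 3.20 in CD28 KO, 2.82 to 3.26 in DKI, 2.77 to 2.95 in CD28 AYAA and 2.48 to 3.14 in Ars2 KO cells, all above the WT values of that day, and 2.38 to 2.63 in CD28 Y170F cells, which overlapped WT. The ratio of Pcbp1 to Pcbp2 was -0.20 to -0.17 in CD28 AYAA at day 3, against -1.73 to -0.86 in CD28 Y170F cells, and these groups did not overlap. The ratio of Srsf4 to Srsf6 in WT cells was -3.04 and -3.03 at day 0, -2.06 and -1.88 at day 1 and -1.24 and -1.04 at day 3, so the balance of these SR paralogs moved at each time point. The log2 ratio of Mbnl1 to Mbnl2 stayed between 3.97 and 4.41 in all 34 libraries.

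**Figure D5:**
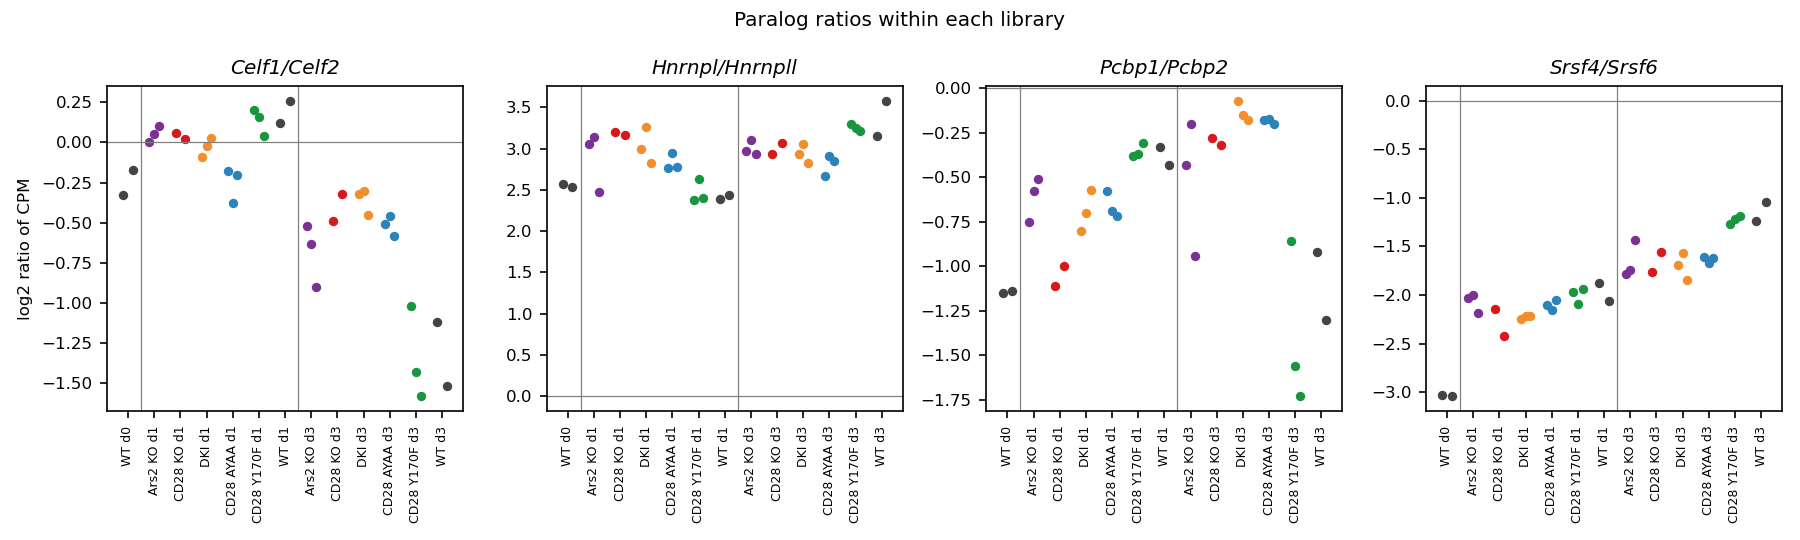
Log2 ratio of CPM of 4 paralog pairs within each library (points), by group from unstimulated WT at the left through day 1 and day 3. The Celf1 to Celf2 ratio lies below -1 in WT and CD28 Y170F cells at day 3 and above it in the other genotypes, and the Srsf4 to Srsf6 ratio is lowest in unstimulated cells.

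Other genes of the splicing machinery were counted as lists. Of 54 core spliceosome genes, 48 were lower and 3 higher in CD28 KO than in WT cells at day 1, with a median log2 fold change of -1.0, where 24.7% of all genes were lower and 18.6% higher. In DKI 34 of the 54 were lower and 1 higher, where 15.8% and 10.3% of all genes were, and depth class moved with that comparison as described above. Among them Snrpd1, an Sm protein, was lower by -2.06 ± 0.25 in CD28 KO (adjusted p = 6.2e-07), and Snrpe by -1.21 ± 0.13 (1.5e-07). Snrnp70 of the U1 snRNP was higher, by 0.48 ± 0.08 (2.1e-05), and so was Sf3b1 of the U2 snRNP, by 0.40 ± 0.08 (0.00023). On stimulation of WT cells 40 of the 54 rose and 2 fell at day 1, against 24.2% and 27.2% of all genes. At day 3, 38 were higher and none lower in CD28 AYAA than in CD28 Y170F cells, against 17.6% and 19.2% of all genes, with Prpf31 of the tri-snRNP at 1.22 ± 0.20 (3.6e-05).

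Of the 8 kinases of SR proteins, 5 were higher and none lower in CD28 KO at day 1 (18.6% and 24.7% of all genes), among them Srpk1 at 0.49 ± 0.08 (adjusted p = 2e-05), Srpk2 at 0.59 ± 0.13 (0.00049) and Clk1 at 0.85 ± 0.22 (0.0024). On stimulation of WT cells Srpk1 rose by 0.51 ± 0.08 (7.7e-06) and Clk1 and Clk4 fell, by -1.06 ± 0.22 (0.00023) and -0.94 ± 0.22 (0.0011). In CD28 AYAA against CD28 Y170F at day 3, 3 kinases were lower (19.2% of all genes), with Srpk2 at -0.63 ± 0.10 (4.2e-05).

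Of 42 other RNA-binding splicing factors, 22 were lower and 11 higher in CD28 KO at day 1 (24.7% and 18.6% of all genes), with Ybx1 at -1.60 ± 0.26 (adjusted p = 2.2e-05) and the cold-inducible Cirbp at 1.05 ± 0.18 (3.6e-05). Of the 5 regulators of Pkm splicing, 4 were lower there, with Hnrnpa1 at -1.40 ± 0.15 (8.8e-08), Ptbp1 at -1.04 ± 0.16 (1.3e-05), Srsf3 at -0.74 ± 0.18 (0.0015) and Hnrnpa2b1 at -0.51 ± 0.16 (0.011), and Rbm4 was higher by 0.42 ± 0.14 (0.017).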

How the data were processed

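Total RNA of 34 libraries was depleted of ribosomal RNA and sequenced as stranded libraries, per the labels' protocols. The deposited table holds expected counts per gene that the authors made with bcl2fastq 2.20, FastQC, STAR and RSEM on mm10/GRCm38, per the submitters' processing notes; between 83.7 and 90.8% of the values in a library were whole, and all were rounded. Of 48526 genes, 48058 matched GENCODE M21, 40606 of them in the same version. Column numbers of CD28 KO at day 3 did not match the sample titles, so those columns are known by group.

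The rounded counts were tested with edgeR 4.0.16 in R 4.3.3 (TMM scaling factors 0.83 to 1.11, filterByExpr, 1 mean per group over all libraries, quasi-likelihood F test, Benjamini-Hochberg adjustment over 18292 genes; called at an adjusted p under 0.05). An SE is the absolute log2 fold change divided by the square root of F. CPM use the TMM-scaled totals. DESeq2 1.42.0 and limma 3.58.1 (voom) were alternatives, beside RLE scaling, no filter, depth class as a term, the compared groups alone, a replicate block and each library left out; a fit to protein-coding genes alone was chosen after seeing the data. The fit was tested on simulated data. Figures used Python 3.11.15 with matplotlib 3.10.9.

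Named genes were, per comparison, up to 4 members in each direction by adjusted p and up to 3 of the other lists; other members are named to account for all of them. Members and lists were chosen with earlier results of these data known. Because genes were named by adjusted p, groups that did not overlap for them describe the values and add no separate evidence. The share of all genes whose groups did not overlap is not given. No 2 libraries of a group agreed within sampling noise (29 pairs, lowest chi-square per degree of freedom 2.79). Same-numbered CD28 AYAA and CD28 Y170F libraries at day 1 deviated together (r = 0.28, 0.33 and 0.39 across genes). The labels do not say that the numbers pair them. In both genotypes numbers 1 and 2 had high Ddx3y and number 3 high Xist. With the numbers as a block the count stayed at 0. Precision is limited by 2 or 3 libraries per group.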

Additional observations from a re-analysis of the deposited data

Results flagged for a closer look

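The difference from WT was not the same on both days for some of the 40 genes, by the interaction test of edgeR (adjusted p under 0.05). This held for 1 gene in Ars2 KO, a smaller share than the 3.68% of all genes called, and for 24 genes in DKI (32.5%). It held for 19 in CD28 AYAA (24.4%) and 23 in the libraries labelled CD28 KO (35.3%). All values below are log2 differences from WT at day 3 minus those at day 1.

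In CD28 KO the value was 2.18 for Hnrnpab, 1.66 for Pcbp1, 1.57 for Srsf7 and 1.25 for Srsf9, and it was -0.79 for Celf2, -0.45 for Mbnl2 and -0.42 for Srsf5. In DKI it was 1.94 for Hnrnpab, 1.41 for Srsf7, 1.19 for Srsf9 and 0.82 for Srsf6, against -0.87 for Celf2, -0.46 for Mbnl2, -0.38 for Mbnl1 and -0.29 for Rbm39. In CD28 AYAA it was 1.28 for Srsf7, 1.22 for Hnrnpll, 0.92 for Srsf9 and 0.74 for Srsf6, against -0.85 for Celf2. In Ars2 KO the single gene was Celf2, at -0.50. The 4 genotypes share the WT libraries, so these values are not independent of one another.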

How the results depend on the processing

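Of 419 counts of called genes under an alternative, 359 lay within 1.5 times the reported count and 60 did not, over 32 comparisons. Of 166 named results, 112 kept their direction and side of the threshold under every alternative run; among 2138 alternative values 176 missed the threshold and none changed direction. With depth class as a term, the counts were 4 for DKI at day 1, 9 for CD28 AYAA at day 1, 2 for Ars2 KO at day 3, 6 for CD28 AYAA at day 3 and 10 for DKI against CD28 KO at day 1. A fit to the compared groups alone gave 1 for CD28 AYAA at day 1, 0 for Ars2 KO at day 3, 3 for CD28 KO at day 3, 18 and 5 for DKI against CD28 KO at days 1 and 3, 13 and 14 for CD28 AYAA against CD28 Y170F at days 1 and 3, 3 for WT day 3 against day 1 and 0 for the Ars2 KO interaction. DESeq2 gave 2 for CD28 AYAA at day 1, 7 for DKI against CD28 KO at day 1 and 3 for the Ars2 KO interaction; limma-voom gave 1 and 0 for the last 2 of these. Without a filter the counts were 2 for CD28 AYAA at day 1, 2 for CD28 AYAA against CD28 Y170F at day 1 and 2 for the Ars2 KO interaction, which was 0 under RLE scaling and 2 with protein-coding genes alone. The summed level of the 40 genes in unstimulated WT cells was 9952 CPM, and 10200 CPM under RLE scaling. The cause of these shifts was not tested. Shares of all genes called are not given for counts under an alternative, here or above. A lower count of the 40 therefore cannot be told from fewer calls over all genes.

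Leaving out each library in turn gave ranges of 0 to 5 for the Ars2 KO interaction, 14 to 26 for that of DKI and 5 to 24 for that of CD28 AYAA. Against WT at day 1 they were 19 to 28 for CD28 KO, 0 to 18 for DKI and 0 to 2 for CD28 AYAA. Against WT at day 3 they were 0 to 9 for Ars2 KO, 4 to 9 for CD28 KO, 5 to 15 for DKI, 2 to 20 for CD28 AYAA and 0 to 4 for CD28 Y170F. They were 8 to 12 for WT day 3 against day 1, 0 to 1 for DKI against CD28 KO at day 1 and 15 to 32 for CD28 AYAA against CD28 Y170F at day 3. The replicate block gave 0 for DKI against CD28 KO at day 1 and 2 for the Ars2 KO interaction, for which the numbers are not known to pair the samples, and left the other counts it could be run for within 1.5 times. Comparisons with protein sequence features were not run.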

Other observations

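At day 3 the 40 genes summed to 16170 CPM in CD28 Y170F number 1, 13340 in number 2 and 12700 in number 3, and to 15700 and 13170 CPM in WT numbers 1 and 4. Without CD28 Y170F number 1, 1 gene was higher than in WT (Mbnl1) and 3 were lower (Hnrnpab, Hnrnpl and Pcbp1). With that library none was called. The share of all genes called without it is not given here, so the count cannot be read as particular to the 40 genes.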
